A study of Mus musculus with 23 samples.

Results

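The interaction of maternal exposure and allergen challenge was examined in lung RNA from all 23 offspring of the study, which fall into the 4 cells of a 2 by 2 design. All animals were BALB/c mice, described as female in the methods and 13 weeks old. Sham offspring (n = 7) were born to dams given saline by the intranasal route before mating, in gestation and until weaning, and received a saline control challenge. PM offspring (n = 7) were born to dams given fine particulate matter (PM2.5) over the same periods and received the same control challenge. Sham-OVA (n = 5) and PM-OVA offspring (n = 4) were sensitised to ovalbumin (OVA) with alum by intraperitoneal injection and then challenged with nebulised OVA, which induces allergic airway disease (AAD). The methods do not make clear whether the control offspring, which received nebulised saline, were sensitised as well. The offspring themselves never received PM2.5 directly, no genetic alteration was involved, and the lungs were taken after a lung function test. The labels name the control challenge PBS and do not say which offspring shared a dam.

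The interaction asks whether the OVA response of PM offspring differed from that of Sham offspring. It was computed for each gene as (PM-OVA minus PM) minus (Sham-OVA minus Sham) on log2(RPM + 0.5), where RPM is the number of reads on a gene scaled to the total of its library. A positive interaction means that the level moved further up, or less far down, in PM offspring than in Sham offspring, and a negative interaction the opposite. Of 35322 genes listed, 16795 reached 0.5 RPM in 4 or more of the 23 libraries, and these entered a single limma fit of all 4 groups. Because RPM is not scaled to transcript length, levels are compared between libraries, and the order of genes by RPM served only to choose which to name. Further, for scarce genes the added 0.5 makes a log2 difference too small. In whole lung, fewer cells of a type and less RNA per cell cannot be told apart.

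In AAD the airway is remodelled while immune cells enter the lung. Inhaled allergen drives type 2 cytokines from T helper cells and innate lymphoid cells, which recruit eosinophils through eotaxins and turn secretory cells of the airway into mucus-producing goblet cells. The conducting airway is also lined by multiciliated cells, whose beating cilia clear mucus and are built under the transcription factor FOXJ1, and by club cells, which secrete secretoglobins and metabolise xenobiotics. Leukocytes that divide in the inflamed lung express genes of DNA replication and mitosis, and plasma cells enlarge their endoplasmic reticulum (ER) to fold and secrete antibody.

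Reads on genes ranged from 13089691 to 17393579 in the saline libraries, from 2298645 to 12185451 in Sham-OVA and from 4324326 to 12355561 in PM-OVA. The alveolar marker Sftpc was abundant in every library, at 6490 RPM or more. Several libraries stood apart. Sham-OVA replicate 3 was the shallowest, with 1 read worth 0.311 RPM and a median within-group correlation across genes of 0.922. PM-OVA replicate 1 had the lowest such correlation, 0.901. Its long transcripts were 0.608 below its short ones in median log2 level relative to the Sham mean (longest against shortest 20% of transcripts), whereas the other OVA libraries lay between -1.45 and -1.11 and the saline libraries between -0.323 and 0.311. The library labelled Sham replicate 1 had 0.289 RPM of Xist, which the other libraries held at 174 RPM or more, and 54.0 RPM of the Y-linked Eif2s3y, which was at 0 elsewhere. Without that library limma called 0 genes in the interaction, and the median over all genes was 0.01.

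Most genes differed between OVA and saline libraries in both cohorts, and limma called no gene in the interaction. In Sham offspring 3625 genes were higher after OVA challenge (21.6% of those tested) and 8219 lower (48.9%) at a Benjamini-Hochberg adjusted p under 0.05 in limma. In PM offspring 3337 were higher (19.9%) and 7539 lower (44.9%). Every OVA library had fewer reads on genes than any saline library. The share of reads that fell on genes was 71.4 to 85.7% in Sham-OVA and 78.5 to 85.6% in PM-OVA. It was 83.0 to 92.4% in Sham and 88.2 to 91.3% in PM. In these responses, effects of the challenge and of library quality cannot be told apart. The interaction was called for 0 of 16795 genes (0%), with a lowest adjusted p of 0.592. At an unadjusted p under 0.05 there were 592 genes with a positive interaction (3.52%) and 262 with a negative one (1.56%), which makes 854 in all (5.08%). On the recovered reads, edgeR called 0 genes with 1388 at an unadjusted p under 0.05, and DESeq2 called 2, Mycbpap and Pdxk, with 1594 at an unadjusted p under 0.05. P-values here measure the spread between these offspring, some of which may be littermates.

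The median interaction over all genes was -0.01, and 49.2% of genes lay above 0. The median response to OVA was -0.48 in Sham offspring and -0.43 in PM offspring. The median standard error (SE) of an interaction was 0.35, and an interaction had to reach about 0.72 to pass an unadjusted p of 0.05 for the median gene, and 410 genes (2.44%) exceeded 1 in either direction. The responses depended on transcript length and the interaction hardly did. From the shortest to the longest 20% of transcripts, the median response went from 0.15 to -1.05 in Sham and from 0.17 to -1.02 in PM offspring, and the median interaction from -0.03 to 0.00.

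**Figure D1:**
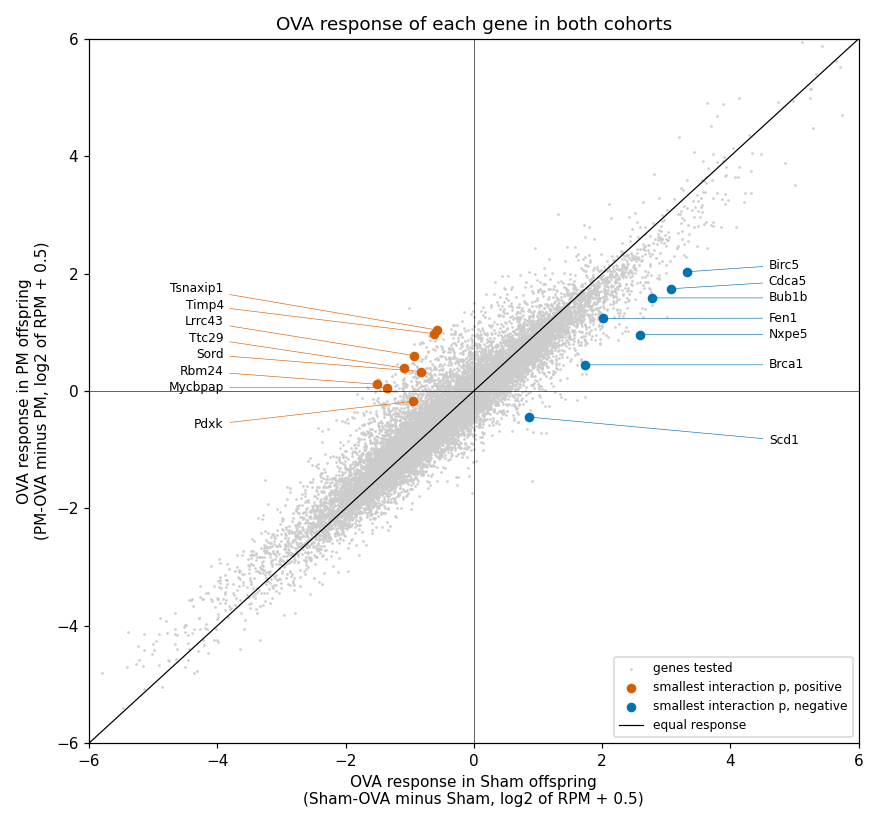
OVA response of each gene tested in Sham offspring (x axis) and PM offspring (y axis), both as log2 differences of RPM + 0.5, with 8 positive and 7 negative genes of smallest interaction p named and 13 genes outside the axis limits of 6 not drawn. The positive genes (orange) lie above the line of equal response, from Mycbpap (-1.35 in Sham, 0.06 in PM) to Tsnaxip1 (-0.58, 1.04), and the negative genes (blue) below it.

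The count of called genes turned on the libraries that stood apart. Without both Sham-OVA replicate 3 and PM-OVA replicate 1, limma called 1966 genes (11.7%), 414 positive and 1552 negative, and the median interaction was -0.25. With quantile normalisation of the same 21 libraries the count was 1364, of which 747 were positive and 617 negative, and the median was -0.02. Array weights, which let limma weigh each library by its fit to its group, gave 4616 calls, 651 positive and 3965 negative, with a median of -0.32. Leaving out 1 library at a time gave 0 calls in 21 of 23 fits, 6 without Sham-OVA replicate 5 and 1 without PM-OVA replicate 2. The direction of the whole table also moved: without Sham-OVA replicate 3 there were 659 positive and 1306 negative genes at an unadjusted p under 0.05 with a median of -0.14, and without PM-OVA replicate 4 there were 1033 and 376 with a median of 0.10. Since those left out or weighed down were the libraries farthest from their group, the spread within groups fell by construction, and the median SE was 0.29 without both. The pair was also picked after seeing the data. Without it, Sham-OVA kept libraries of 10345173 reads on genes or more, whereas PM-OVA kept replicates 3 and 4 at 5922469 and 4324326. Effects of maternal exposure and of library depth cannot be told apart in that fit. Calls without the pair are given below for some lists and are no support for a lean. Values below are from all 23 libraries unless said otherwise, and none of the interactions named passed the adjusted threshold there.

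Among the positive interactions with the smallest p, most genes were lower after OVA challenge in Sham offspring and did not pass the test in PM offspring. Mycbpap, which encodes a MYCBP-associated protein (GRCm38 chr11:94501347-94521742, minus strand), had a lowest, median and highest level of 9.41, 10.9 and 13.9 RPM in Sham and 6.97, 10.6 and 10.9 RPM in PM. Its levels were 2.43, 3.61, 5.28, 4.30 and 6.5 RPM in Sham-OVA replicates 1 to 5 and 9.20, 14.1, 9.03 and 8.72 RPM in PM-OVA replicates 1 to 4. All 5 Sham-OVA libraries thus lay below every other library, and the PM-OVA libraries overlapped the saline ones. The response was -1.35 in Sham offspring (limma, adjusted p = 2.64e-06) and 0.06 in PM offspring (adjusted p = 0.818), and the interaction 1.41 ± 0.28 (SE, unadjusted p = 4.78e-05, adjusted p = 0.592).

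Pdxk, pyridoxal kinase of vitamin B6 metabolism (chr10:78436744-78464975, minus strand), ranged from 43.9 to 62.2 RPM in Sham (median 48.8) and from 43.3 to 52.2 RPM in PM (median 48.2). It was at 27.4, 28.4, 18.3, 27.5 and 29.8 RPM in Sham-OVA and at 47.8, 48.1, 42.4 and 34.1 RPM in PM-OVA. The Sham-OVA range lay wholly below those of the other 3 groups. Its response was -0.96 in Sham and -0.18 in PM offspring, and the interaction 0.78 ± 0.20 (unadjusted p = 5.52e-04).

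Rbm24, an RNA-binding regulator of splicing in muscle, was at 0.764, 2.26, 3.73, 2.71 and 3.87 RPM in Sham-OVA, against 5.85, 11.4, 9.82 and 5.27 RPM in PM-OVA and medians of 8.25 in Sham and 7.11 RPM in PM. The Sham-OVA values lay below all the others, and the interaction was 1.63 ± 0.39. Lrrc43, a leucine-rich repeat gene, had an interaction of 1.54 ± 0.37, and Sham-OVA replicate 5 at 4.82 RPM overlapped the PM-OVA libraries. Ttc29, which encodes a tetratricopeptide repeat protein of the sperm flagellum, had a response of -1.09 in Sham and 0.39 in PM offspring (unadjusted p of the interaction 9.17e-04).

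Sord, sorbitol dehydrogenase of the polyol pathway, was at 12.1, 12.6, 11.5, 16.4 and 17.1 RPM in Sham-OVA and at 21.4, 29.1, 23.4 and 23.8 RPM in PM-OVA, with no overlap. Its saline ranges were wider, 16.5 to 47.5 RPM in Sham and 14.7 to 27.4 RPM in PM, and the interaction was 1.16 ± 0.30. Timp4, an inhibitor of metalloproteinases, and Tsnaxip1, which encodes an interactor of translin-associated factor X, differed from the rest. Neither passed the test in Sham offspring (responses of -0.62 and -0.58), and both were higher after OVA challenge in PM offspring (0.98 and 1.04, limma adjusted p = 0.00775 and 0.00374). Their interactions were 1.59 ± 0.42 and 1.62 ± 0.40.

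Among the negative interactions, Scd1 had the smallest p and the rest were mostly genes of dividing cells. Scd1, the stearoyl-CoA desaturase that makes monounsaturated fatty acids (chr19:44394455-44407879, minus strand), ranged from 366 to 773 RPM in Sham (median 620.0) and from 703 to 1363 RPM in PM (median 1003). It was at 1139, 870.4, 1222, 1189 and 913 RPM in Sham-OVA and at 828.8, 748, 744 and 668 RPM in PM-OVA. OVA challenge thus went with a higher level in every Sham-OVA library than in any Sham library, while 3 PM-OVA libraries lay in the lower part of the PM range and PM-OVA replicate 4 below it. The response was 0.86 in Sham offspring (adjusted p = 5.97e-04) and -0.44 in PM offspring (adjusted p = 0.0723), the difference of PM from Sham was 0.80 under saline and -0.50 after challenge, and the interaction was -1.31 ± 0.29 (unadjusted p = 1.70e-04). Fasn, the fatty acid synthase of the same pathway, had an interaction of -0.47 ± 0.21. Interactions were negative for 12 of the 16 genes of fatty acid and cholesterol synthesis (median -0.19, from -0.37 without Sham-OVA replicate 3 to -0.07 without PM-OVA replicate 4), and the highest was 0.75 for Insig1, which holds back cholesterol synthesis (named after its value was seen).

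Fen1, the flap endonuclease of lagging-strand synthesis (chr19:10199132-10204169, minus strand), was at 14.2 to 19.8 RPM in Sham and 16.3 to 19.4 RPM in PM. It was at 83.9, 72.1, 51.6, 68.9 and 56.1 RPM in Sham-OVA and at 43.5, 36.7, 37.8 and 53.9 RPM in PM-OVA. All OVA libraries exceeded all saline libraries, and only PM-OVA replicate 4 reached into the Sham-OVA range. The response was 2.01 in Sham (adjusted p = 3.42e-11) and 1.24 in PM offspring (adjusted p = 3.50e-07), and the interaction -0.77 ± 0.19 (unadjusted p = 5.70e-04).

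Birc5, which encodes survivin of the chromosomal passenger complex (chr11:117849251-117855743, plus strand), was at 30.9, 19.6, 12.7, 23.2 and 14.7 RPM in Sham-OVA and at 10.2, 7.73, 7.70 and 13.6 RPM in PM-OVA, against medians of 1.51 in Sham and 2.06 RPM in PM. Its response was 3.32 in Sham and 2.03 in PM offspring, both past the test, and the interaction was -1.29 ± 0.39. Brca1, a gene of homologous recombination repair, was at 11.9, 9.78, 6.21, 8.37 and 7.08 RPM in Sham-OVA and at 5.85, 3.94, 3.85 and 5.63 RPM in PM-OVA, with no overlap. Its response passed the test in Sham offspring (1.73) and not in PM offspring (0.45), and the interaction was -1.28 ± 0.34. The difference between a response that passes and one that does not is given by the interaction itself, which did not pass after adjustment.

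Cdca5 (sororin, which holds sister chromatids together) and Bub1b (a kinase of the spindle checkpoint) had interactions of -1.34 ± 0.38 and -1.20 ± 0.35. PM replicate 5, a saline library, held more Brca1, Cdca5 and Birc5 than any other PM library. Nxpe5, a gene of little known function, had -1.63 ± 0.39, with responses of 2.59 and 0.96.

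**Figure D2:**
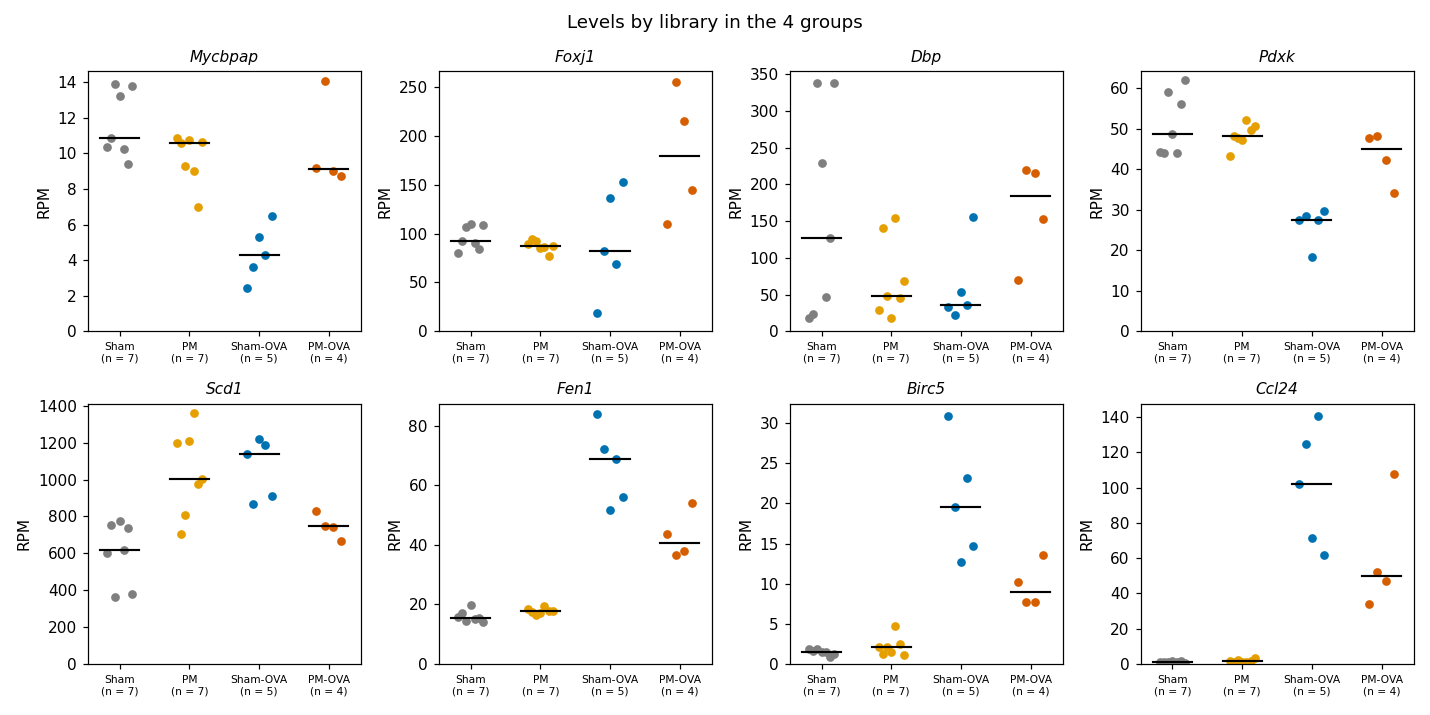
Levels (RPM, linear axis from 0) of 8 genes in each library of Sham (n = 7), PM (n = 7), Sham-OVA (n = 5) and PM-OVA (n = 4); points are libraries and bars are group medians. Mycbpap and Pdxk are low in Sham-OVA alone, Scd1 is high in PM and Sham-OVA, and Fen1, Birc5 and Ccl24 are higher after OVA challenge in both cohorts, with most PM-OVA points under the Sham-OVA points.

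Function was examined with 52 lists of 820 genes, of which 24 were too low to test and 4 (Cxcl11, Mx1, Dnai1 and Dnai2) had no row. Lists share some genes, such as Ccl24, and were chosen with earlier results of these data known. Their counts are therefore descriptive and do not test whether a function leans. A list is described by how many tested members had a positive or negative interaction and by its median, beside the median of -0.01 and the shares of 3.52% positive and 1.56% negative at an unadjusted p under 0.05 over all genes. Counts of members higher or lower after OVA challenge stand beside shares over all genes of 21.6% and 48.9% in Sham offspring. In PM offspring these shares were 19.9% and 44.9%. No list holds a gene called in the interaction. The largest positive medians were those of the motile cilium (1.19), circadian clock (0.92), goblet cell mucus (0.60), and, at 0.47 each, club cell and cardiac muscle lists, and the largest negative medians those of mast cells and basophils (-0.94), mitosis (-0.93), ER protein folding (-0.55), alternatively activated macrophages (-0.55), DNA replication (-0.53) and CC chemokines (-0.50).

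**Figure D3:**
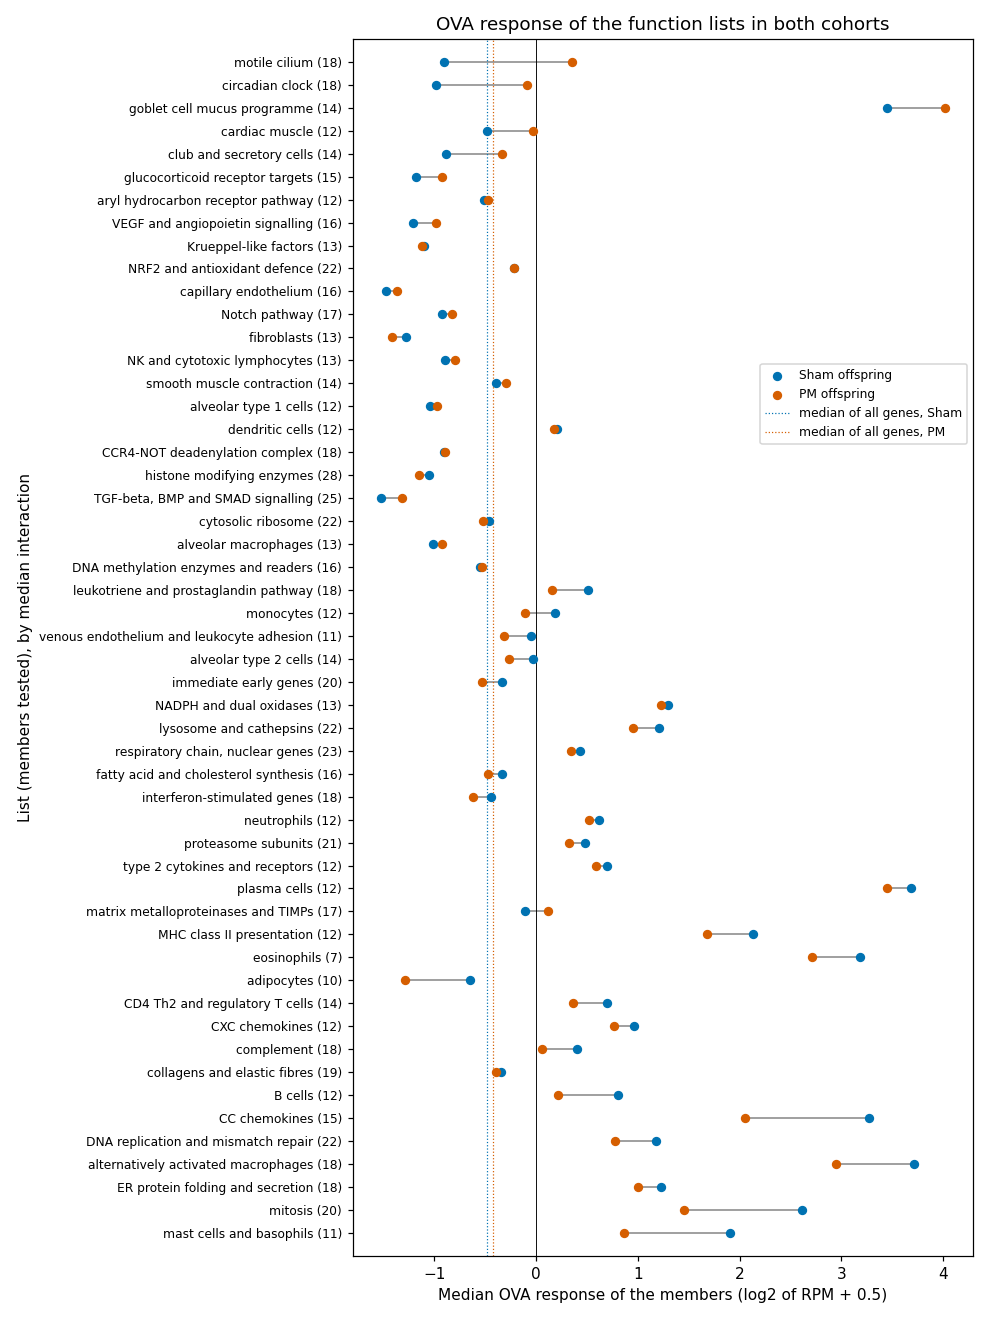
Median OVA response of the tested members of 52 function lists, in Sham (blue) and PM (orange) offspring, as log2 differences of RPM + 0.5, ordered by the median interaction; the number tested is in parentheses and dotted lines are the medians of all genes, -0.48 and -0.43. The motile cilium list at the top goes from -0.90 in Sham to 0.35 in PM, and the mitosis list near the bottom from 2.62 to 1.45.

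Genes of the motile cilium moved furthest in the positive direction. Interactions were positive for 18 of 18 members tested, from 0.64 to 1.64, and 12 of them had an unadjusted p under 0.05, compared with 3.52% of all genes. In Sham offspring 10 of the 18 were lower after OVA challenge and 0 higher, and in PM offspring 3 were lower and 7 higher. Of all genes 48.9% were lower in Sham, and 44.9% were lower and 19.9% higher in PM offspring, so that the count lower in Sham was near the share over all genes. Foxj1, the master transcription factor of multiciliated cells, was at 19.2, 82.1, 136, 69.2 and 153 RPM in Sham-OVA and at 109, 255, 215 and 145 RPM in PM-OVA, against 79.7 to 110.3 RPM in Sham and 77.1 to 94.6 RPM in PM. PM-OVA replicates 2 to 4 lay above both saline groups and replicate 1 at their upper end, while the Sham-OVA libraries spread to both sides of them. The interaction of Foxj1 was 1.32 ± 0.47 (unadjusted p = 0.00954).

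The axonemal dynein heavy chains, motors of the beating cilium, went the same way. Dnah9 was at 2.36, 8.12, 10.6, 7.97 and 21.5 RPM in Sham-OVA and at 12.8, 32.3, 26.8 and 21.6 RPM in PM-OVA (interaction 1.64 ± 0.46). Dnah11 was at 0.764, 1.81, 3.73, 1.91 and 4.67 RPM in Sham-OVA and at 4.64, 8.35, 7.97 and 4.54 RPM in PM-OVA, against medians of 7.99 in Sham and 8.36 RPM in PM (interaction 1.45 ± 0.40). Sham-OVA replicate 5 was the library that overlapped PM-OVA in both genes. The mean log2 level of the list was 1.64, 2.82, 2.92, 2.85 and 3.75 in Sham-OVA and 3.46, 4.56, 3.87 and 3.25 in PM-OVA, compared with 3.50 to 3.99 in Sham and 3.38 to 3.71 in PM. Leaving out each library in turn kept the median of the list between 0.83 (without PM-OVA replicate 2) and 1.54 (without Sham-OVA replicate 5). Without both libraries that stood apart it was 1.32, and 10 of the 18 members were called positive, compared with 2.47% of all genes. The spread fell by construction in that fit, and with all 23 libraries none was called.

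Markers of other airway epithelial cells leaned the same way, though less uniformly. Of 14 genes of the goblet cell mucus programme, all were higher after OVA challenge in Sham offspring and 13 in PM offspring, with median responses of 3.45 and 4.02. Interactions were positive for 12 and had an unadjusted p under 0.05 for 4. Itln1, which encodes intelectin, had levels of 4.03, 12.8, 11.2, 7.25 and 9.28 RPM in Sham-OVA and 14.0, 33.0, 11.02 and 15.1 RPM in PM-OVA (interaction 1.12 ± 0.42). Ern2, the epithelial sensor of ER stress, stayed under 1 RPM in Sham-OVA (0.0695, 0.0752, 0, 0.478 and 0.803) and was at 0.941, 1.70, 0.929 and 0.908 RPM in PM-OVA (interaction 1.03 ± 0.29), which is a few reads in the shallow libraries. Clca1, a regulator of mucus and the member highest in RPM, was at 423 to 1755 RPM in Sham-OVA and 1063 to 4545 RPM in PM-OVA with wide overlap (0.68 ± 1.53). Over 39 other settings its interaction ranged from -3.5 to 1.86 and had the opposite sign in 2. PM replicate 1 had a list score of 1.94, compared with 0.364 to 0.700 in the other PM libraries.

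In the club and secretory cell list 10 of 14 interactions were positive, 3 of them with an unadjusted p under 0.05. Median responses were -0.89 in Sham and -0.34 in PM offspring. Cyp2f2, a cytochrome P450 of club cells, was at 154, 353, 455, 432 and 825 RPM in Sham-OVA and at 301, 1377, 788 and 569.6 RPM in PM-OVA (interaction 1.00 ± 0.47), and both groups lay below the saline libraries but for PM-OVA replicate 2. Cbr2, a carbonyl reductase, had 0.91 ± 0.39. Scgb1a1, the secretoglobin that defines club cells, had 0.93 ± 0.63, with 3404 to 26224 RPM in Sham-OVA and 5419 to 31944 RPM in PM-OVA. PM-OVA replicate 2 held the highest and Sham-OVA replicate 1 the lowest level of Foxj1, Dnah9, Cyp2f2, Scgb1a1 and Clca1 among OVA libraries. Markers of 3 airway cell types thus moved together across libraries, and the share of airway tissue in each sample was not tested. Cardiac muscle genes, which reach lung samples through the pulmonary veins, had positive interactions for 11 of 12 members and a median of 0.47, with 0 at an unadjusted p under 0.05.

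Alveolar markers did not follow the airway. The alveolar type 1 list had a median interaction of 0.05 and the alveolar type 2 list one of -0.08, and 0 of their 12 and 14 members reached an unadjusted p under 0.05. Sftpc, which encodes surfactant protein C, had an interaction of -0.05 ± 0.40, and Ager, a marker of type 1 cells, one of -0.13 ± 0.23.

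Genes of the circadian clock had the second highest positive median. CLOCK and BMAL1 (Arntl) drive the Per and Cry repressors and the output factors Dbp, Tef and Hlf, which peak in the opposite phase to Arntl. Interactions were positive for 13 of 18 members, 10 with an unadjusted p under 0.05, among them Per1, Per2, Per3, Cry1, Cry2, Tef and Dbp. They were negative for Arntl (-1.22 ± 0.86), its partners Npas2 (-1.08 ± 0.93) and Clock (-0.46 ± 0.29), Nfil3 (-0.78 ± 0.60) and Bhlhe40 (-0.01 ± 0.40), 0 of these with an unadjusted p under 0.05. Bhlhe41 and Nr1d1, further repressors of the loop, had 0.03 and 0.40, also with a higher p. In Sham offspring 11 members were lower after OVA challenge and 2 higher, and in PM offspring 4 were lower and 3 higher. Of all genes 48.9% were lower and 21.6% higher in Sham offspring, and 44.9% and 19.9% in PM offspring. The median difference of PM from Sham was -0.36 under saline and 0.61 after challenge.

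Tef, an output transcription factor, ranged from 203 to 745 RPM in Sham (median 340.1) and 175 to 368 RPM in PM (median 242). It was at 104, 106, 167, 132 and 324 RPM in Sham-OVA and at 173, 341, 367 and 388 RPM in PM-OVA. Sham-OVA replicates 1 to 4 lay below every saline library, and replicate 5 and all PM-OVA libraries but replicate 1 lay within the saline range. The interaction was 1.54 ± 0.48 (unadjusted p = 0.00357). Per1, a repressor, had an interaction of 0.96 ± 0.34.

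Dbp, named after its values were seen as the largest interaction of the list, was at 33.4, 22.8, 53.1, 35.6 and 156 RPM in Sham-OVA and at 69.3, 219.9, 215 and 152 RPM in PM-OVA (interaction 2.42 ± 1.01, unadjusted p = 0.0252). It varied as widely without challenge, from 18.01 to 339 RPM in Sham and from 17.6 to 154 RPM in PM. Arntl was at 17.1, 11.3, 1.86, 14.6 and 5.11 RPM in Sham-OVA and at 11.4, 4.25, 2.92 and 5.08 RPM in PM-OVA, again within its saline range of 1.79 to 25.5 RPM. Sham-OVA replicate 5, the Sham-OVA library highest in Dbp, was low in Arntl. The median of the list stayed between 0.81 and 1.02 when any 1 library was left out and was 0.45 with array weights. Without both libraries that stood apart 5 members were called positive, compared with 2.47% of all genes. The hour at which each lung was taken is not given in the sources used here.

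**Figure D4:**
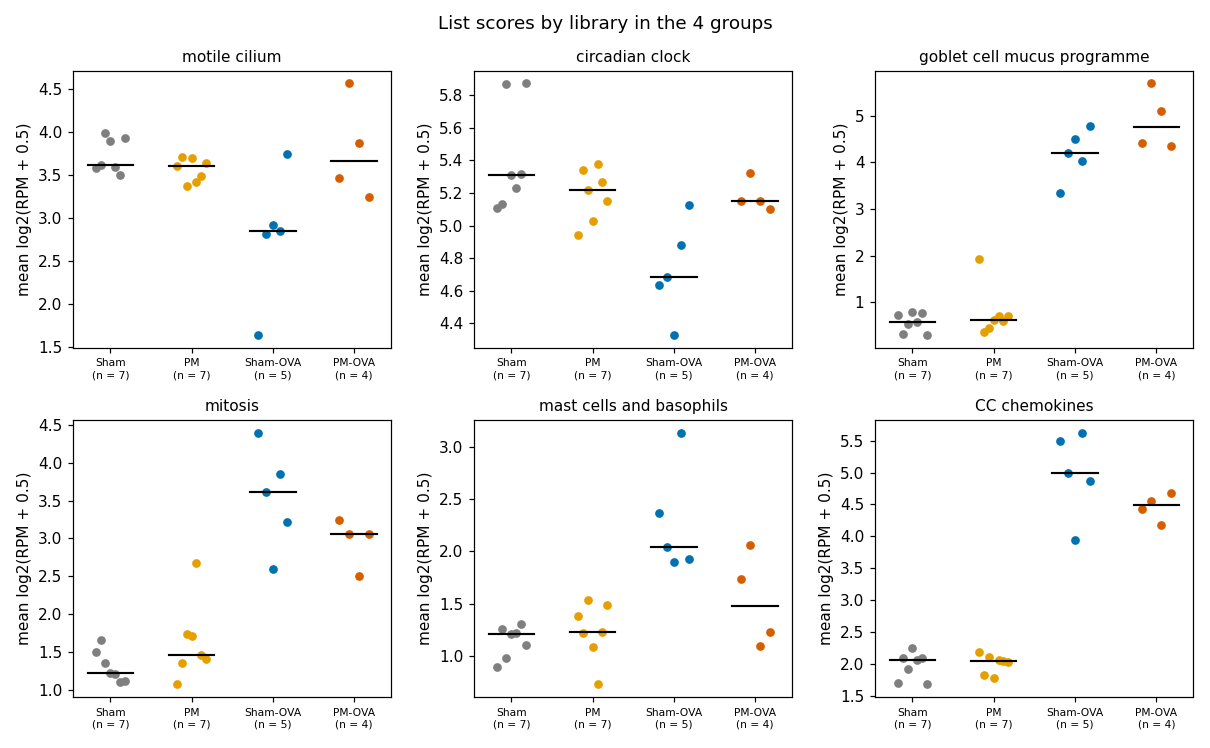
Mean log2(RPM + 0.5) of 6 lists in each library of Sham (n = 7), PM (n = 7), Sham-OVA (n = 5) and PM-OVA (n = 4); points are libraries, bars are group medians and each panel has its own axis. The circadian clock scores of PM-OVA (5.10 to 5.33) lie near those of PM, with the Sham-OVA scores from 4.33 to 5.13 mostly lower, whereas the mitosis scores are higher in both OVA groups, to 2.59 to 4.40 in Sham-OVA and 2.504 to 3.24 in PM-OVA.

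Cell division leaned the other way. In Sham offspring 19 of 20 mitosis genes were higher after OVA challenge, with a median response of 2.62, and in PM offspring 15 were higher, with a median of 1.45. The interaction was negative for 20 of 20, from -1.38 to -0.08, and had an unadjusted p under 0.05 for 8, compared with 1.56% of all genes. Ccna2, the cyclin of S and G2 phase and the member highest in RPM, was at 82.4, 49.2, 29.8, 62.0 and 34.0 RPM in Sham-OVA and at 31.3, 30.7, 21.6 and 42.3 RPM in PM-OVA (interaction -0.99 ± 0.41), so that the groups overlapped. Both sides of the contrast contributed, with a median difference of PM from Sham of 0.31 under saline and -0.62 after challenge. PM replicate 5 had a mitosis score of 2.68, compared with 1.07 to 1.74 in the other PM libraries, and without it the median interaction was -0.76.

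Of 22 genes of DNA replication and mismatch repair, 19 had a negative interaction (median -0.53), 6 with an unadjusted p under 0.05. Mcm2 and Mcm3, subunits of the replicative helicase, had -0.77 ± 0.24 and -0.76 ± 0.28, with responses of 1.63 and 1.70 in Sham and 0.86 and 0.94 in PM offspring. Without both libraries that stood apart, 9 mitosis and 7 replication genes were called negative, and with quantile normalisation as well 4 and 3. Of all genes 9.24% and 3.67% were called negative in these fits.

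The core type 2 cytokines were low in these libraries. Il4, Il5 and Il13 did not exceed 4.24 RPM in any library, and their interactions were -0.31 ± 0.40, -0.52 ± 0.47 and -0.58 ± 0.59. Il13 was listed at 0 in all 7 Sham libraries and had levels of 4.24, 2.56, 0, 2.15 and 0.146 RPM in Sham-OVA and 0.806, 1.31, 0 and 0.908 RPM in PM-OVA. In the list of 12 cytokines and receptors, 8 members were higher in Sham and 5 in PM offspring, with median responses of 0.70 and 0.59. The median interaction was -0.24, with 0 members at an unadjusted p under 0.05, and ranged from -0.49 (without Sham-OVA replicate 3) to -0.10 (without Sham-OVA replicate 1).

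CC chemokines, which draw leukocytes into tissue, had a negative interaction for 14 of 15 members and an unadjusted p under 0.05 for 4. As many were higher after challenge in each cohort (12 of 15), with median responses of 3.28 in Sham and 2.05 in PM offspring. Ccl24, an eotaxin made by macrophages, was at 102, 125, 71.1, 141 and 61.6 RPM in Sham-OVA and at 33.8, 52.4, 47.3 and 107 RPM in PM-OVA, with responses of 5.73 and 4.70 and an interaction of -1.04 ± 0.42. Ccl2, which attracts monocytes, had -1.23 ± 0.44, and Ccl4, which attracts macrophages and T cells, had -1.27 ± 0.47. The other eotaxin measured, Ccl11, had responses of 4.98 and 4.94 and an interaction of -0.04 ± 0.33, with 63.7 to 116 RPM in Sham-OVA and 61.2 to 94.1 RPM in PM-OVA.

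Of the neutrophil-attracting CXC chemokines, Cxcl5 was at 28.2, 10.4, 3.11, 17.7 and 4.09 RPM in Sham-OVA and at 6.52, 2.63, 1.19 and 1.82 RPM in PM-OVA (interaction -1.74 ± 0.71), and Cxcl3 had -1.33 ± 0.59. In the list 10 of 12 members were negative. The median was -0.34, and it was -0.74 with Sham-OVA replicate 3 left out, -0.22 with PM-OVA replicate 3 left out, -0.23 with Sham-OVA replicate 1 left out, -0.74 in DESeq2 and -0.90 without both libraries that stood apart. The neutrophil list had 0 members at an unadjusted p under 0.05.

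The mast cell and basophil list had the most negative median, -0.94, with 10 of 11 members negative and 6 at an unadjusted p under 0.05. Most of its genes were scarce, so their values rest on few reads. Mcpt1, a protease of mucosal mast cells, was at 1.46, 2.03, 5.59, 1.35 and 1.53 RPM in Sham-OVA and at 0.336, 1.16, 0.133 and 1.45 RPM in PM-OVA (interaction -1.11 ± 0.40). Mcpt2, another such protease, was listed at 0 in all 7 PM libraries and in PM-OVA replicates 3 and 4, and at 2.71, 2.26, 1.55, 1.51 and 1.97 RPM in Sham-OVA. The interaction of Mcpt2 was -1.38 with all 23 libraries and ranged from -2.37 to 0.36 in other settings. Without PM-OVA replicate 2 it was the only gene called. Cpa3, the carboxypeptidase of mast cells, was at 5.77, 1.81, 3.11, 7.01 and 2.19 RPM in Sham-OVA and at 1.95, 2.94, 1.73 and 0.908 RPM in PM-OVA (-0.94 ± 0.41). Kit, the stem cell factor receptor, which lung endothelium also expresses, had responses of -1.82 and -1.77 and an interaction of 0.05 ± 0.57. The basophil protease Mcpt8 was at 68.0 RPM in Sham-OVA replicate 4 and at 1.27 RPM or less in every other library.

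Eosinophil markers rose in both cohorts, 6 of 7 tested in each, with median responses of 3.18 and 2.71. Interactions were negative for 6 of the 7, 1 of them with an unadjusted p under 0.05. The median interaction was -0.32, from -0.61 without Sham-OVA replicate 3 to -0.13 without Sham-OVA replicate 4, and -0.74 in DESeq2. Epx, eosinophil peroxidase, was listed at 0 in all saline libraries and was at 1.88, 2.86, 1.24, 2.71 and 1.02 RPM in Sham-OVA and at 1.55, 1.16, 0.531 and 1.09 RPM in PM-OVA (interaction -0.60). Rnase2a, an eosinophil ribonuclease, had responses of 7.68 and 7.71 (interaction 0.03 ± 0.66). Il5ra, the receptor subunit for IL-5, had -0.71 ± 0.38.

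Alternatively activated macrophage genes had a negative interaction for 15 of 18 members (median -0.55) and an unadjusted p under 0.05 for 2, Folr2 and Ccl24. Retnla, a secreted resistin-like protein and the member highest in RPM, was at 11407 to 23305 RPM in Sham-OVA and 8337 to 22248 RPM in PM-OVA, with responses of 9.74 and 9.12 and an interaction of -0.62 ± 0.84. Folr2, a folate receptor of resident interstitial macrophages, had responses of 2.62 and 1.42 (-1.20 ± 0.48). The complement gene C1qc had -0.56 ± 0.28, and its list was negative in 15 of 18 (median -0.36, from -0.57 without Sham-OVA replicate 3 to -0.22 without PM-OVA replicate 3). The alveolar macrophage and monocyte lists had medians of -0.02 and -0.07.

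B cell, T cell and antigen presentation lists leaned to a smaller response in PM offspring, with 0 members at an unadjusted p under 0.05, and the list of natural killer and cytotoxic cells did not lean (median 0.05). B cell genes had 12 of 12 negative interactions (median -0.45). In that list 8 genes were higher after challenge in Sham offspring and 2 in PM offspring, where 21.6% and 19.9% of all genes were higher, and Cd79b of the B cell receptor had responses of 2.18 and 1.62. MHC class II genes had 12 of 12 negative as well (median -0.31, and -0.52 without Sham-OVA replicate 3), with 10 higher in each cohort, and Cd74, the invariant chain, had -0.51 ± 0.37. The list of CD4 Th2 and regulatory T cells had 13 of 14 negative, with a median of -0.33 that ranged from -0.53 (without Sham-OVA replicate 3) to -0.08 (without PM-OVA replicate 4). Plasma cell genes had a median of -0.27 (-0.12 without PM-OVA replicate 2), and Jchain, the joining chain of polymeric antibody, had responses of 7.27 and 7.76 (0.49 ± 0.52).

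Genes of ER protein folding, a function of secreting cells, had 17 of 18 negative interactions (median -0.55), 4 with an unadjusted p under 0.05. Dnajb11, an ER co-chaperone, was at 288, 263, 170.3, 267 and 208 RPM in Sham-OVA and at 194, 163, 143 and 205 RPM in PM-OVA (interaction -0.57 ± 0.22), and Pdia4, a disulfide isomerase, had -0.67 ± 0.30. Hspa5 (BiP), the chief ER chaperone, was at 1352, 1573, 292, 1298 and 877 RPM in Sham-OVA and at 1435, 771, 328 and 538 RPM in PM-OVA (-0.76 ± 0.56). Sham-OVA replicate 3 was lowest in its group for all 3 genes, and without both libraries that stood apart 8 of the 18 were called negative (9.24% of all genes), 8 also with quantile normalisation (3.67%).

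Of 19 genes of collagens and elastic fibres 18 had a negative interaction (median -0.42), 1 of them with an unadjusted p under 0.05. This was Eln, which encodes elastin, at 596, 977, 951, 674 and 358 RPM in Sham-OVA and at 649.7, 515, 323 and 224 RPM in PM-OVA. Its saline ranges were 111 to 509 RPM in Sham and 196 to 952 RPM in PM, the response was 1.36 in Sham (adjusted p = 0.00348) and -0.11 in PM offspring, and the interaction -1.47 ± 0.57. The median difference of PM from Sham over the list was 0.31 under saline and -0.04 after challenge. PM replicate 5 had a list score of 8.20, compared with 7.22 to 7.61 in the other PM libraries, and without it the median interaction was -0.31. Mmp14, a membrane metalloproteinase that cuts collagen, was at 251, 215, 179.6, 212 and 157 RPM in Sham-OVA and at 171, 158, 165 and 164 RPM in PM-OVA, with an interaction of -0.68 ± 0.22 (unadjusted p = 0.00442). Fibroblast and smooth muscle lists had medians of 0.05 each.

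Several regulatory lists lay at the middle of the table. TGF-beta, BMP and SMAD genes were lower after OVA challenge in both cohorts, 23 of 25 in each, with median responses of -1.53 and -1.32 and a median interaction of -0.01. Bmpr2, a BMP receptor and the member highest in RPM, had responses of -2.11 and -2.06 (0.04 ± 0.49). Histone modifying enzymes (28 tested, 22 lower in each cohort) had a median interaction of 0.00 and the DNA methylation enzymes and readers (16) one of -0.06. The CCR4-NOT deadenylation complex, which shortens poly(A) tails, had 0.01, with Cnot9 as its 1 member of 18 at an unadjusted p under 0.05 (-0.44 ± 0.17). NRF2 and antioxidant genes had 0.08 and the aryl hydrocarbon receptor pathway, which senses combustion products, 0.14, each with 0 members at an unadjusted p under 0.05. Cyp1a1, the classical target of that receptor, had -0.79 ± 0.55. These medians shifted with that of the whole table. Without both libraries that stood apart they were -0.51 for TGF-beta, BMP and SMAD signalling, -0.33 for histone modifiers and -0.43 for CCR4-NOT, and with quantile normalisation as well -0.26, -0.11 and -0.12.

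The lists at both ends kept their sign whichever single library was left out. This held for the motile cilium, circadian clock, goblet, club, cardiac, mitosis, replication, ER folding, mast cell, CC chemokine, macrophage, B cell and collagen lists. The size of some medians moved by over 1.5 times. The goblet median of 0.60 was 0.31 without Sham-OVA replicate 1 and 0.36 without PM-OVA replicate 2. The club median of 0.47 was 0.74, 0.23 and 0.78 when PM-OVA replicates 1, 2 and 4, respectively, were left out. The cardiac median of 0.47 was 0.22 without Sham-OVA replicate 2, 0.30 without Sham-OVA replicate 1 and 0.95 without Sham-OVA replicate 3. Of the negative lists, CC chemokines went from -0.50 to -0.86 without Sham-OVA replicate 3 and -0.30 without Sham-OVA replicate 4, and collagens from -0.42 to -0.66, -0.27 and -0.21 without PM-OVA replicates 1, 3 and 4. The macrophage median of -0.55 was -0.35 without PM replicate 5, and the B cell median of -0.45 was -0.30 without Sham-OVA replicate 1. The cardiac list alone among these lists changed sign under another setting, to -0.25 with DESeq2.

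**Figure D5:**
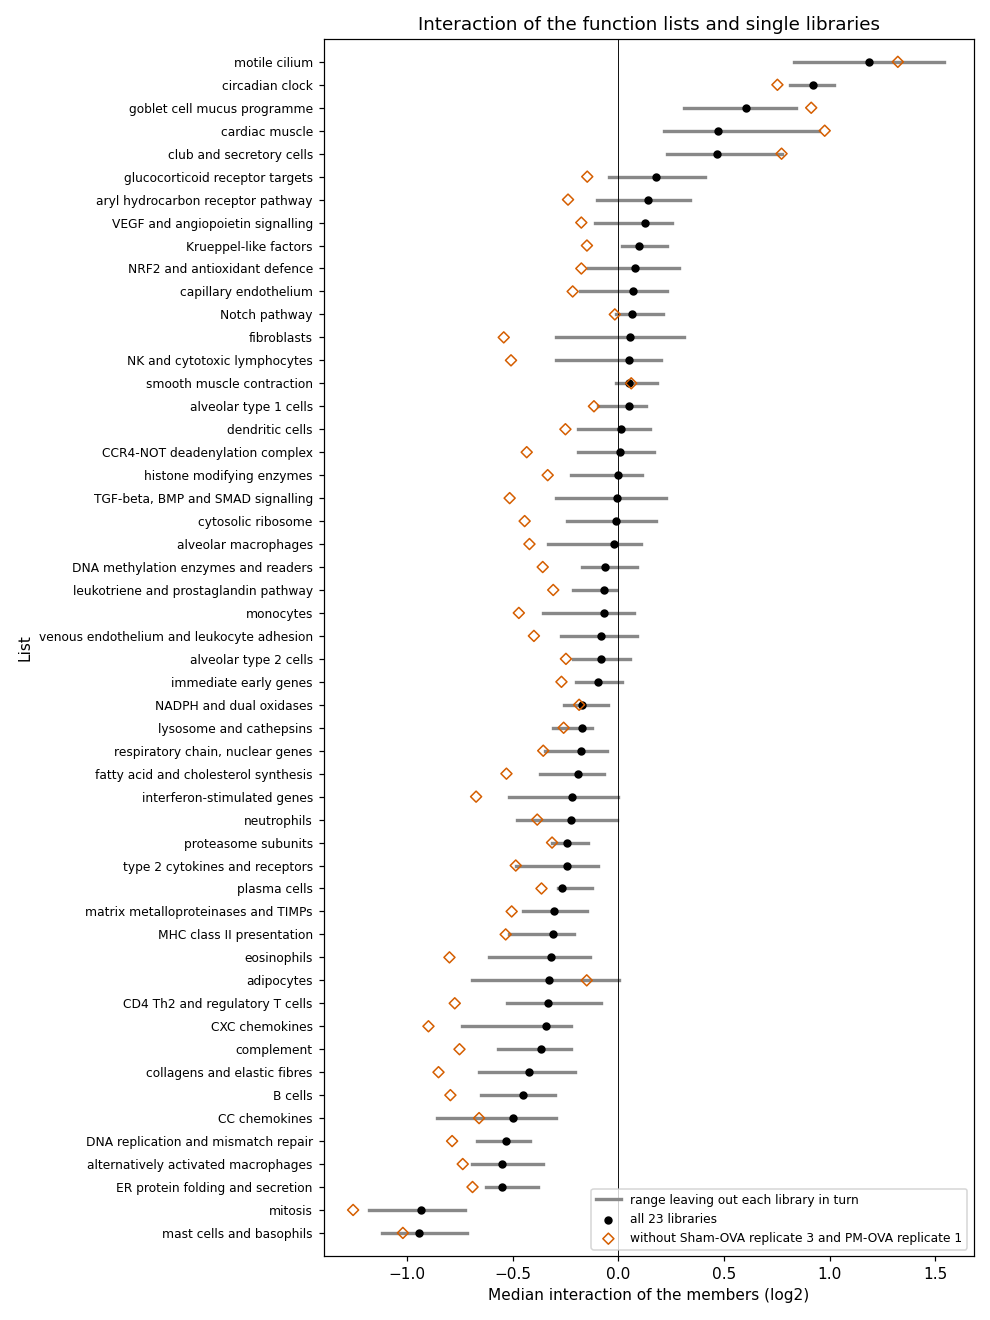
Median interaction (log2) of the tested members of each list with all 23 libraries (black points), the range over fits that leave out each library in turn (grey bars), and the value without Sham-OVA replicate 3 and PM-OVA replicate 1 (orange diamonds). The motile cilium (bar from 0.83 to 1.54) and mitosis lists (-1.18 to -0.72) stay away from 0 throughout, and the diamonds of most lists in the middle lie to the left of their points.

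The promoters of 4 lists that lean to either side were searched for a motif known for each, to show what their members share. RefSeq promoters of GRCm38.p6 (250 bases before the start of a gene to 50 after it) were at hand for 15 of 18 clock, 15 of 18 cilium, 16 of 20 mitosis and 15 of 18 ER folding genes, and motifs were sought on both strands. The E-box CACGTG, to which CLOCK and BMAL1 bind, was in 5 of 15 clock promoters (33.3%) and in 7.24% of all 27025 promoters, or 9.54% of the 12384 promoters of tested genes. The cell-cycle homology region TTTGAA was in 11 of 16 mitosis promoters (68.8%), in 18.1% of all and in 12.4% of those of tested genes. The ER stress response element, CCAAT and CCACG separated by 9 bases, was in 7 of 15 ER folding promoters (46.7%), in 0.13% of all and in 0.145% of those of tested genes. The X-box of RFX factors, sought as GTNNCC and GGNAAC at a distance of 0 to 3 bases, was in 2 of 15 cilium promoters (13.3%), in 2.34% of all and in 2.99% of those of tested genes. A match describes these letters and not a bound site.

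The 250 bases before the start are shown for members chosen after their values were seen, 5′ to 3′ on the strand of the gene, with the motif in capitals (as its reverse complement where it lies on the other strand). Tef and Per1, clock genes with positive interactions (1.54 and 0.96), each hold 1 E-box. Ciart (1.495), Cry1 (0.88) and Bhlhe41 (0.03) hold the motif too. Clock genes without it include Dbp (2.42), Per3 (1.66) and Cry2 (0.69), and also Arntl (-1.22), Npas2 (-1.08) and Clock (-0.46). A relation of motif and interaction was not tested.
Tef (chr15:81802423-81802672, plus strand): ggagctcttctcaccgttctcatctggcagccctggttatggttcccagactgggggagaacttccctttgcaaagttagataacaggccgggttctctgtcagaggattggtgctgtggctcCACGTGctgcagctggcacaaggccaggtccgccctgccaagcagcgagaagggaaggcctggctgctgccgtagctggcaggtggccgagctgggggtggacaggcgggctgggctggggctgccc
Per1 (chr11:69098699-69098948, plus strand): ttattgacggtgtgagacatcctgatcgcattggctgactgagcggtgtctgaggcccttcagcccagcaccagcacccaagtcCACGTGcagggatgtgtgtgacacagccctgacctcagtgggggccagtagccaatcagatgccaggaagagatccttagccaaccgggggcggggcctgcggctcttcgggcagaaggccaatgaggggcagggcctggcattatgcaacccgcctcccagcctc

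Tekt4, which encodes a tektin of the axoneme, has an X-box match, and its interaction was 1.08 ± 0.42.
Tekt4 (chr17:25471340-25471589, plus strand): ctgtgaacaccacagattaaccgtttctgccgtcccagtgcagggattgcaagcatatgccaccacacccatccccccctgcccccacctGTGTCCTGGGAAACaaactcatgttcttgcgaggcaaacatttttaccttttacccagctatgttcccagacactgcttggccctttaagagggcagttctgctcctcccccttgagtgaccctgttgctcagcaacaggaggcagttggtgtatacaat

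Kif11, the mitotic spindle kinesin, and Top2a, DNA topoisomerase II alpha, hold 1 and 2 copies of TTTGAA, and had interactions of -1.27 ± 0.39 and -1.38 ± 0.54.
Kif11 (chr19:37376132-37376381, plus strand): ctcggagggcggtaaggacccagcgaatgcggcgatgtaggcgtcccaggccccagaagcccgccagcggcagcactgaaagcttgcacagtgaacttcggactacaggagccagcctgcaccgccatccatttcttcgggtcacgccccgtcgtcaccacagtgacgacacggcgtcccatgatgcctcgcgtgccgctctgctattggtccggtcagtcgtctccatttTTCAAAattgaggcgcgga
Top2a (chr11:99024190-99024439, minus strand): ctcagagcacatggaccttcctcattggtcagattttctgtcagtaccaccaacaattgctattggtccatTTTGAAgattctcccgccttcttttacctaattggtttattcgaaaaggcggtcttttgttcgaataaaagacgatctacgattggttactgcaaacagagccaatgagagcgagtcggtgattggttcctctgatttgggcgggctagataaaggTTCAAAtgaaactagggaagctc

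Creld2, an ER chaperone gene with an interaction of -0.83 ± 0.39, and Hspa5 each hold 1 ER stress response element.
Creld2 (chr15:88819396-88819645, plus strand): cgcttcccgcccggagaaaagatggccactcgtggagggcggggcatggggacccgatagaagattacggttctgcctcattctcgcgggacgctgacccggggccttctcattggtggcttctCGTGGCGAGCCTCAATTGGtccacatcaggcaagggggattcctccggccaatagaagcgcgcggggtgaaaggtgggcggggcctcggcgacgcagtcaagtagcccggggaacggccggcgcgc
Hspa5 (chr2:34771840-34772089, plus strand): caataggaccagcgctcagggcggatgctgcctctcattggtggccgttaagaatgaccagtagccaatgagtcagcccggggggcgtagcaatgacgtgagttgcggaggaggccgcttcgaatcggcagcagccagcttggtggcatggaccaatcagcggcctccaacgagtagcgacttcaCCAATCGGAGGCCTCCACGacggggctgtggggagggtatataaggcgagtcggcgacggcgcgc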

How the data were processed

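RNA-Seq of lung from 23 offspring was used. According to the study's methods, reads were trimmed with Trimmomatic, mapped to GRCm38 with Bowtie2 and quantified in SeqMonk; the labels name bcl2fastq and mm10. The values deposited by the authors are RPM, in 1 table of 35322 genes (Ptp4a1 occurs 2 times). That table carries the name RPKM, and tests were planned for RPKM, but 100% of its values lay within 0.05 of a whole number of reads, so the reads were recovered.

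Values were transformed to log2(RPM + 0.5) and tested with limma 3.58.1 in R 4.3.3 (1 mean per group, trend in the variance, Benjamini-Hochberg adjustment over 16795 genes). The interaction and both OVA responses came from 1 fit. edgeR 4.0.16 and DESeq2 1.42.0 were run on the recovered reads. The fit was also run on simulated reads with large interactions and no library that stood apart. Those settings differ from these data, so that run does not measure the power of the fit here. Genes and lists were chosen with earlier results of these data known. Named genes were the 8 with the smallest interaction p of each sign at a mean of at least 2 RPM and, in each list, the 2 with the smallest p and the highest in RPM, and others are marked as named after their values were seen or stand as known members of a function. Some genes that these rules select are not reported here. A list score is the mean log2 level of its members. Positions and transcript lengths (known for 98.5% of genes) came from the GENCODE annotation of GRCm38. Alternatives were other pseudocounts, filters and scalings, array weights, robust variances, equal depth, a replicate block and leaving out each library. Leaving out a pair of libraries, with or without quantile normalisation, and removing the trend with transcript length were chosen after seeing the data. Plots were made in Python 3.11.15 (matplotlib 3.10.9).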

Additional observations from a re-analysis of the deposited data

Results flagged for a closer look

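Within each group, the values of 15 genes and 6 list scores were checked for 1 library far from the rest (Dixon's ratio at the 95% level), which chance would mark in about 1 of 20 groups of values. Of 84 groups of values 10 were marked. PM replicate 5 accounted for 4 of them, all genes or scores of cell division: Brca1 at 7.39 RPM, Cdca5 at 3.23 RPM, Birc5 at 4.75 RPM and the mitosis score at 2.68. Outside this check, that library had a capillary endothelium score of 7.40, compared with 8.64 to 8.87 in the other PM libraries. Its Sftpc level was 18493 RPM, compared with 8486 to 9765 RPM in the others. PM replicate 1 had a goblet cell mucus score of 1.94. Among OVA libraries, Mycbpap stood at 14.1 RPM in PM-OVA replicate 2, Lrrc43 at 4.82 RPM in Sham-OVA replicate 5 and Pdxk at 18.3 RPM in Sham-OVA replicate 3. In Sham, Sord was at 47.5 RPM in replicate 3 and Ttc29 at 9.64 RPM in replicate 4.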

How the results depend on the processing

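The number of genes called in the interaction was 0 under other pseudocounts, a stricter filter, median-of-ratios scaling, quantile normalisation, array weights by group, robust variances, equal depth, edgeR and removal of the length trend. It was 1 with no filter (Gm10616), 2 with DESeq2, 4616 with array weights by library, 1966 without Sham-OVA replicate 3 and PM-OVA replicate 1, and 1364 with quantile normalisation of those libraries. Leaving out each library in turn gave 0 to 6. Positive genes at an unadjusted p under 0.05 numbered 1158 with array weights by library, 251 with array weights by group, 1024 with edgeR, 1108 with DESeq2, 1142 without both libraries, 2146 with quantile normalisation as well, and 351 (without PM-OVA replicate 2) to 1033 (without PM-OVA replicate 4) with 1 library left out. Negative genes numbered 411 with median-of-ratios scaling, 487 with quantile normalisation, 5527 and 55 with array weights by library and by group, 486 with DESeq2, 4307 without both libraries, 2406 with quantile normalisation as well, and 162 (without Sham-OVA replicate 1) to 1306 (without Sham-OVA replicate 3) with 1 left out. The median interaction was -0.32 with array weights by library, -0.25 without both libraries, and -0.14 to 0.10 with 1 left out. Array weights and leaving out both libraries act on the libraries farthest from their groups, which lowers the spread by construction, and for the other shifts the cause was not tested. The interaction of Mcpt2, which is at 0 in all PM libraries, was 0.36 in edgeR. With a replicate block 0 genes were called, with 582 positive and 224 negative at an unadjusted p under 0.05, and no call changed. Of 29 pairs with the same number 8 correlated above 0.1 (median r -0.01, highest 0.617). These numbers are those of the sample titles, and the library names of most OVA samples carry other numbers. A pairing of animals or a batch was therefore not tested. Sham-OVA replicate 3 held 2298645 reads on genes, and PM-OVA replicates 3 and 4 held 5922469 and 4324326. With 4 and 5 OVA libraries, an interaction of the median gene had to reach about 0.72 for an unadjusted p of 0.05. Larger ones did not pass after adjustment.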

Other observations

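Between PM-OVA and Sham-OVA 1 gene was called in limma, with 1015 at an unadjusted p under 0.05, and between PM and Sham 0 genes, with 141. The gene was Ahcy, S-adenosylhomocysteine hydrolase of the methionine cycle, whose level is low in these RPM values. Its mean level was 2.80 ± 0.62 RPM (SD, n = 5) after challenge of Sham offspring and 0.862 ± 0.18 RPM (n = 4) after challenge of PM offspring. Under saline it was 0.579 ± 0.17 RPM in Sham and 0.523 ± 0.23 RPM in PM (n = 7 each). The difference of PM-OVA from Sham-OVA was -1.27 ± 0.21 (SE, adjusted p = 0.0439), its OVA response was 1.61 in Sham and 0.43 in PM offspring, and its interaction was -1.17 ± 0.26 (unadjusted p = 1.79e-04, adjusted p = 0.592).

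Adipocyte genes, of which 10 were tested, split in the interaction. Cidea, a lipid droplet gene of brown fat, was at 0.208, 1.28, 0.932, 1.12 and 1.53 RPM in Sham-OVA and at 0.873, 5.10, 2.52 and 3.09 RPM in PM-OVA (interaction 1.24 ± 0.45), and Retn, which encodes resistin, was at 0.319 to 2.17 RPM in Sham-OVA and at 0 to 0.403 RPM in PM-OVA (-1.08 ± 0.44). Neither passed the adjusted threshold.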
